A study of Mus musculus with 12 samples.

Results

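The methionine and one-carbon cycle was followed through 9 genes in the livers of 12 mice: Mat1a, Mat2a, Gnmt, Bhmt, Bhmt2, Ahcy, Cbs, Cth and Shmt1. They were chosen by name, as every row of the deposited transcript table whose gene name was one of the 9. That gave 64 of 152210 rows, and the 9 genes are 9 of 22170 gene names. All 9 averaged 0.5 FPKM or more across the livers and so entered the test, as did 11566 gene names in all.

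The livers came from male C57BL/6J mice that were housed singly and began the diets at 5 weeks of age. The groups were fed a normal diet (ND), a high-fat diet (HFD), the HFD with 1.5% (w/w) of an ethanol extract of chrysanthemum leaves (CLE), or the HFD with 0.003% (w/w) luteolin (LU), a flavone found in those leaves. The diets lasted 16 weeks, so that the mice were 21 weeks old at the end, and the livers were taken after fasting. Each group had 3 livers from separate mice, and every CLE and LU mouse also ate the high-fat diet, which makes HFD their control. The study's methods call the sequenced livers representative samples of their group, and how they were picked is not stated. The comparisons ask what the high-fat diet did to these genes, and whether CLE or LU moved them from the HFD level. Bulk liver was measured, so that fewer cells of a type and less RNA per cell cannot be told apart.

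Methionine adenosyltransferases (Mat1a in hepatocytes, Mat2a in most other tissues and in growing liver) turn methionine into S-adenosylmethionine, the methyl donor of most methyltransferases. Gnmt spends surplus S-adenosylmethionine on glycine, and Ahcy splits the S-adenosylhomocysteine that is left into adenosine and homocysteine. Homocysteine is either methylated back to methionine, by Bhmt with betaine or by Bhmt2 with S-methylmethionine, or passed through Cbs and Cth to cysteine, while Shmt1 moves a carbon unit from serine to folate in the cytosol.

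In GENCODE M21 (GRCm38) all 9 are protein-coding genes. The enzymes that make and use S-adenosylmethionine are Mat1a (ENSMUSG00000037798) at chr14:41105035-41124412 on the plus strand, Mat2a (ENSMUSG00000053907) at chr6:72432799-72439558 on the minus strand, Gnmt (ENSMUSG00000002769) at chr17:46725664-46729168 on the minus strand and Ahcy (ENSMUSG00000027597) at chr2:155059310-155074497 on the minus strand. The homocysteine methyltransferases are Bhmt (ENSMUSG00000074768) at chr13:93616675-93637961 on the minus strand and Bhmt2 (ENSMUSG00000042118) at chr13:93655720-93674302 on the minus strand, close together. The enzymes of the path to cysteine are Cbs (ENSMUSG00000024039) at chr17:31608894-31637238 on the minus strand and Cth (ENSMUSG00000028179) at chr3:157894248-157925077 on the minus strand, and the folate enzyme is Shmt1 (ENSMUSG00000020534) at chr11:60788104-60811718 on the minus strand.

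The values were FPKM (fragments scaled to transcript length and to library size), which carry no counts, so that the depth behind each value is unknown. The summed FPKM of all named genes ranged from 1.70e+06 in ND mouse 4 to 5.58e+06 in CLE mouse 4. ND mouse 4 also had the highest values of all livers for Mat1a, Gnmt, Bhmt, Bhmt2, Ahcy and Cth. The part of its low library sum in these values was not tested. Alb, the albumin gene that every hepatocyte uses, was listed at 0 in 11 of 12 livers, so a 0 in this table can be a failed estimate. The hepatocyte markers Ttr, Apoa1, Apob, Cps1, Tdo2, Hnf4a, Serpinc1 and F2 were above 1 FPKM in every liver. Deviations of genes from their mean were related to their GC content at a Spearman rho of -0.37 to -0.14 in the ND and HFD livers and of 0.16 to 0.48 in the CLE and LU livers, so that CLE and LU differed from HFD in GC content relation as well as in diet.

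The 9 genes were highly expressed, from a mean of 3254 FPKM for Bhmt and 2331 FPKM for Mat1a down to 64.9 FPKM for Mat2a. Bhmt lay above Mat1a in 12 of 12 livers, and Mat1a above Gnmt in 12 of 12. Gnmt (894 FPKM) and Ahcy (857 FPKM) could not be ordered, since Gnmt was the higher in 6 of 12 livers. Cth (374 FPKM) and then Cbs (219 FPKM) followed in 12 of 12 livers. Bhmt2 (109 FPKM) and Shmt1 (98.8 FPKM) changed places between livers, with Bhmt2 above in 7 of 12, and Mat2a was the lowest in all 12.

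**Figure D1:**
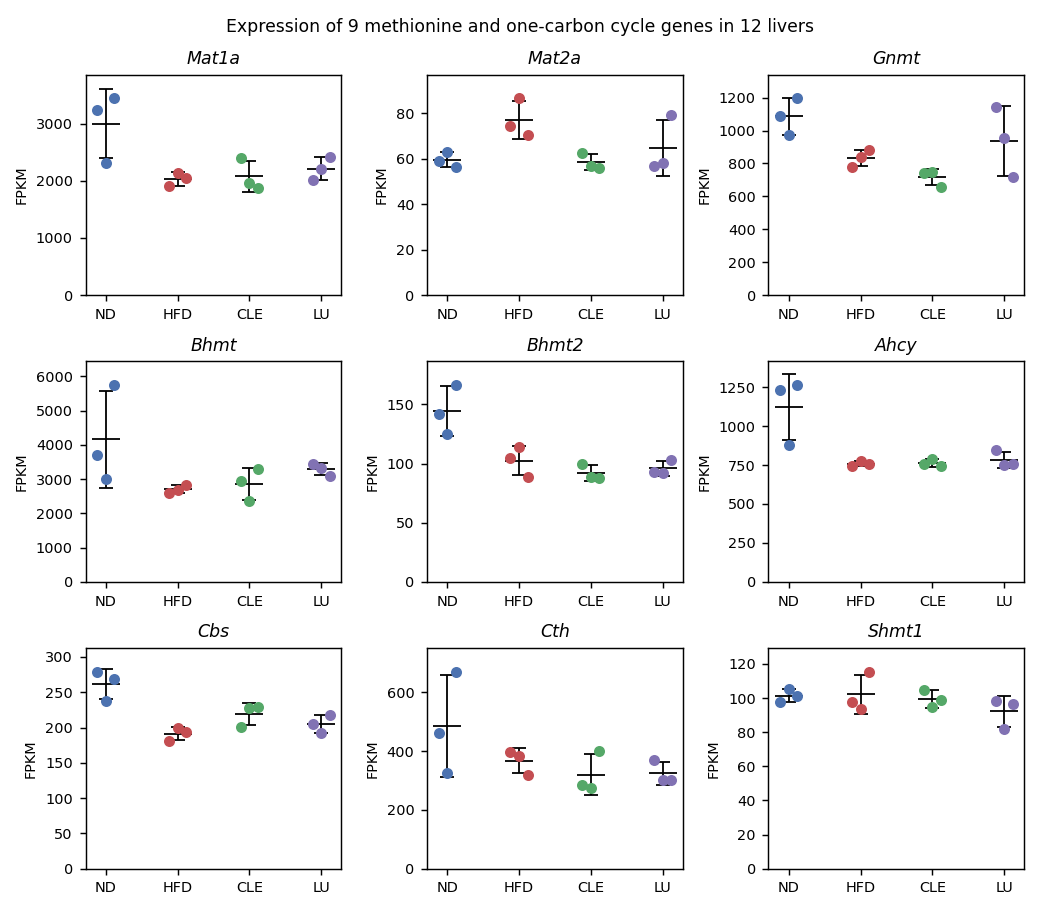
FPKM of each gene in each liver (points), with the group mean (long bar) and SD (error bars), n = 3 per group; each vertical axis starts at 0. Mat1a, Gnmt, Bhmt, Bhmt2, Ahcy and Cbs were lower in every HFD liver than in every ND liver, as were 7.44% of all genes tested. Shmt1 lay between 81.7 and 115 FPKM in all 12 livers.

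In HFD livers 3 of the 9 genes fell against ND, Cbs, Ahcy and Bhmt2, each to about 0.7 of the ND level, and none of the 9 passed as higher. The limma test across all gene names called 12.1% of them in either direction and 2.11% as lower in HFD. At an unadjusted p under 0.05 the count was 7 of 9 genes, beside 27.2% of all genes tested. Every HFD liver was below every ND liver for 6 of the 9 genes, against 7.44% of all genes tested, and above for 1, Mat2a, against 29.1%. The median log2 fold change of the 9 was -0.45, beside 0.11 for all genes tested. Of all calls 82.6% were higher in HFD, and 55.2% after median-of-ratios scaling, which raised the share of all genes called lower from 2.11% to 4.36%. Under that scaling Cbs (-0.61), Ahcy (-0.71) and Bhmt2 (-0.65) also passed, as did Mat1a (-0.70), and Shmt1 turned to -0.15.

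Cbs, which joins homocysteine to serine, was 279, 238 and 269 FPKM in the ND livers and 181, 199 and 193 FPKM in the HFD livers. The groups were well apart, and the means were 262 ± 21.6 (SD, n = 3) and 191 ± 9.17 FPKM (SD, n = 3). The log2 fold change was -0.45 (95% interval -0.68 to -0.22, limma adjusted p = 0.015). Ahcy was 1228, 879 and 1263 FPKM in ND and 744, 773 and 759 FPKM in HFD. One ND liver, mouse 3, lay nearer to the HFD livers than to the other ND livers, and the HFD livers were close together. The change of Ahcy was -0.55 on the log2 scale (95% interval -0.85 to -0.25, limma adjusted p = 0.022). Bhmt2 was 142, 125 and 166 FPKM in ND and 105, 114 and 88.9 FPKM in HFD. Its groups did not overlap, and it changed by -0.49 on the log2 scale (95% interval -0.76 to -0.21, limma adjusted p = 0.026).

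The other genes did not pass the test. Mat1a, which makes most of the S-adenosylmethionine of the liver, was 3238, 2312 and 3449 FPKM in ND and 1909, 2142 and 2043 FPKM in HFD. Each HFD liver was below each ND liver, the log2 fold change was -0.54 and its 95% interval ran from -0.91 to -0.18 (limma adjusted p = 0.053). Mat2a, the form of growing cells, was 59.1, 62.9 and 56.5 FPKM in ND and 74.3, 86.6 and 70.6 FPKM in HFD. It was the only one of the 9 with every HFD liver above every ND liver, at 0.37 on the log2 scale (95% interval 0.08 to 0.65, limma adjusted p = 0.091). When limma was fitted to these 6 livers alone it passed as higher (limma adjusted p = 0.046), which made 4 calls of the 9. Gnmt was 1089.5, 974 and 1197 FPKM in ND and 779.8, 839 and 881 FPKM in HFD, apart in every liver. Its log2 fold change was -0.38 (95% interval -0.72 to -0.04, limma adjusted p = 0.14).

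Bhmt, the betaine enzyme, was 3713, 3014 and 5745 FPKM in ND and 2608, 2671 and 2832 FPKM in HFD. The ND livers differed widely, with mouse 4 the highest, and the log2 fold change was -0.57 (95% interval -1.02 to -0.11, limma adjusted p = 0.10). Cth, which releases cysteine from cystathionine, ranged from 325 to 669 FPKM in ND and from 319 to 398 FPKM in HFD. These ranges overlapped (log2 fold change -0.35, limma adjusted p = 0.35). Shmt1 was the flattest of the 9, at 101 ± 3.73 FPKM in ND and 102 ± 11.6 FPKM in HFD (SD, n = 3 each), with a log2 fold change of 0.01 and a 95% interval of -0.23 to 0.24.

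**Figure D2:**
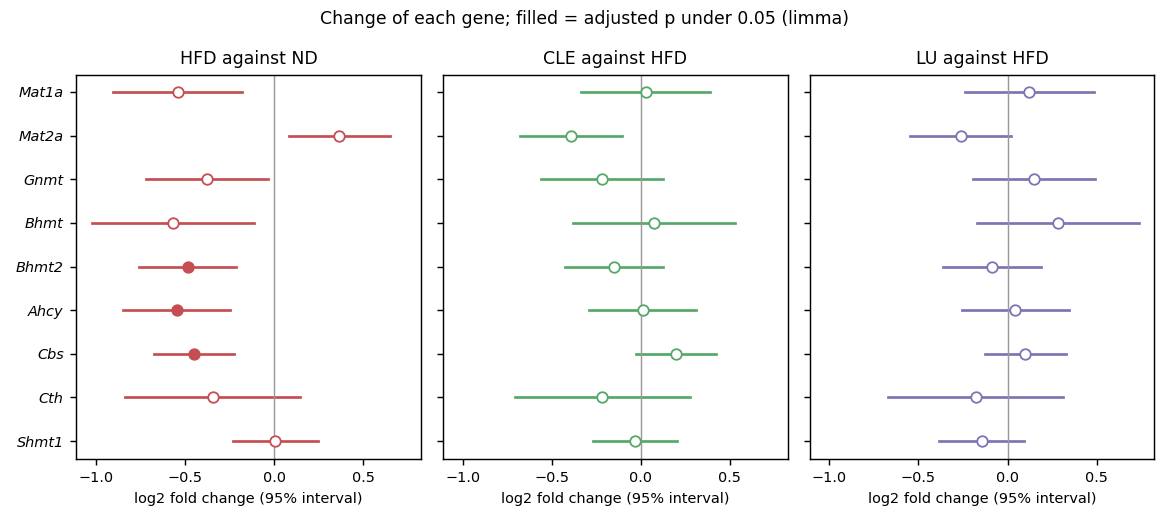
Log2 fold change (on the log2(FPKM + 1) scale) of each gene with its 95% interval from limma, in 3 panels: HFD set against ND, then CLE and LU each set against HFD; filled points passed an adjusted p of 0.05. The filled points are Bhmt2, Ahcy and Cbs in HFD against ND, and there is none in the other panels.

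These 3 calls rested on few livers. Without ND mouse 2, ND mouse 4 or HFD mouse 12 none of the 9 genes was called, without HFD mouse 18 only Cbs was, without HFD mouse 15 Bhmt2 and Cbs were, and without ND mouse 3 there were 5. The log2 fold change of Ahcy ran from -0.71 to -0.45 over these 6 fits, that of Bhmt2 from -0.58 to -0.38 and that of Cbs from -0.52 to -0.40. With the highest transcript of each gene in place of the sum 0 of the 9 were called, at -0.33 for Ahcy, -0.29 for Cbs and -0.49 for Bhmt2.

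The livers also differed in the expression of their clock genes. A score was made as the mean z value of Dbp, Per1, Per2, Per3, Nr1d1, Nr1d2, Tef, Hlf and Ciart minus that of Arntl, Clock, Npas2 and Cry1. It was -2.45, -0.43 and -3.25 in the ND livers, 0.33, -1.24 and 0.54 in HFD, 0.66, 1.57 and 0.49 in CLE, and 1.83, 1.49 and 0.45 in LU. ND mouse 3, with the highest ND score, had the lowest ND values of Mat1a, Gnmt, Bhmt, Bhmt2, Ahcy, Cbs and Cth. With the score as a covariate 0 of the 9 genes were called in any comparison, and in HFD against ND Cbs was at -0.34 (limma adjusted p = 0.19), Ahcy at -0.37 (limma adjusted p = 0.28) and Bhmt2 at -0.24 (limma adjusted p = 0.37). That fit called 416 of all genes tested in place of 1400. In HFD against ND 2 of the 9 genes added in the score passed, Hlf and Ciart, and 0 of the 4 subtracted. In CLE and in LU against ND these counts were 6 and 2. The ND and HFD scores overlapped, with ND mouse 3 above HFD mouse 15. Since the score differed along with the groups, diet and clock score cannot be told apart for these genes. Clock phase itself was not measured.

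**Figure D3:**
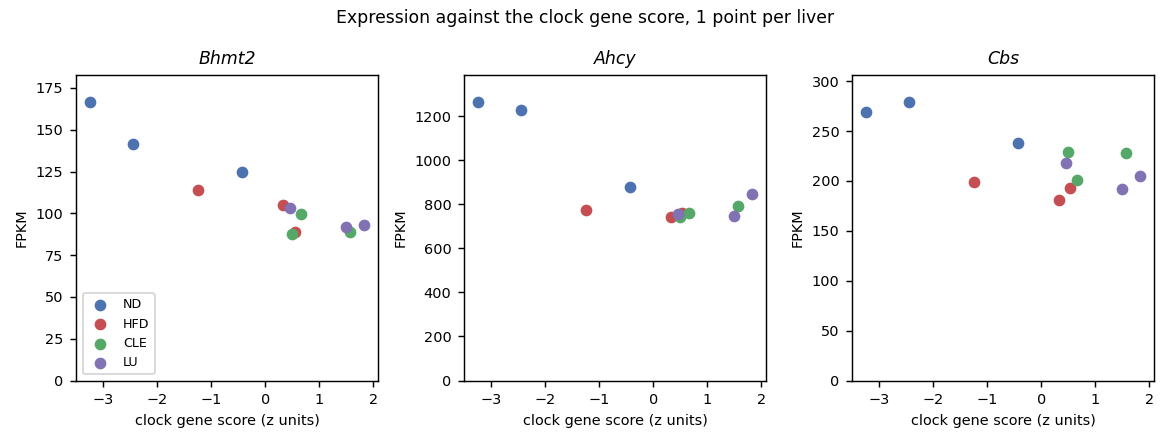
FPKM of Bhmt2, Ahcy and Cbs (vertical axes, from 0) against the clock gene score (horizontal axes, in z units), 1 point per liver, coloured by group. The ND livers of mouse 2 and mouse 4, at -2.45 and -3.25, hold the highest values of all 3 genes.

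Markers of liver zones moved with the same contrast, in which 1156 of all 11566 genes tested were called as higher and 244 as lower. Of 8 pericentral hepatocyte genes 5 were higher in HFD, and the summed level of the 8 was 7001 to 7793 FPKM in ND and 9495 to 11414 FPKM in HFD. Most of that sum came from genes that did not pass. Cyp2e1 was 4850 to 7883 FPKM over the livers (limma adjusted p = 0.087) and Oat 1119 to 1886 FPKM (limma adjusted p = 0.10). Of 7 periportal genes Pck1 was lower, with sums of 2503 to 3704 FPKM in ND and 2528 to 2931 FPKM in HFD. None of 8 general hepatocyte genes passed, with sums of 13353 to 15371 FPKM in ND and 12361 to 14793 FPKM in HFD. Stellate cell genes passed as higher in 4 of 6 and Kupffer cell genes in 2 of 6, with sums of 72.6 to 103 FPKM in ND and 128 to 162 FPKM in HFD for the former and 94.1 to 107 and 137 to 205 FPKM for the latter. Endothelial genes passed as higher in 1 of 5 and dividing cell genes in 1 of 4, and no cholangiocyte, lymphocyte or adipocyte gene passed. Of the 4 adipocyte genes Adipoq, Plin1 and Lep were below 1 FPKM in all 12 livers and did not enter the test. Cidec, a lipid droplet gene, was the 1 tested, at 35.6 to 185 FPKM over the livers and 0.45 on the log2 scale (limma adjusted p = 0.41). The part of zone and cell type in the values of the 9 genes was not tested.

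The stretches just before the starts of Bhmt, Bhmt2, Ahcy and Cbs are shown because 3 of these genes passed the test and Bhmt is close to Bhmt2 on the chromosome and also methylates homocysteine. Each is the 250 bases upstream of the RefSeq start in GRCm38.p6, which need not be the start in GENCODE M21: 203 bases of the Bhmt window and 33 of the Cbs window lie within the M21 gene, and 0 of the Ahcy and Bhmt2 windows. The windows are all on the minus strand, at chr13:93637759-93638008 for Bhmt, chr13:93674303-93674552 for Bhmt2, chr2:155074498-155074747 for Ahcy and chr17:31637206-31637455 for Cbs. Capitals mark AGGTCA (a nuclear receptor half-site), CACGTG (an E-box), GGGCGG (a GC box) and CCAAT (the CCAAT box), read on either strand.
Bhmt: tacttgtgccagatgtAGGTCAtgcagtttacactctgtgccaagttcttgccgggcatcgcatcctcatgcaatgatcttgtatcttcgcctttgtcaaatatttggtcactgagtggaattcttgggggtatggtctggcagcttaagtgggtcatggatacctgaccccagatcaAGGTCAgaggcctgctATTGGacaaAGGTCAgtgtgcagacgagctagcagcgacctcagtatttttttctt
Bhmt2: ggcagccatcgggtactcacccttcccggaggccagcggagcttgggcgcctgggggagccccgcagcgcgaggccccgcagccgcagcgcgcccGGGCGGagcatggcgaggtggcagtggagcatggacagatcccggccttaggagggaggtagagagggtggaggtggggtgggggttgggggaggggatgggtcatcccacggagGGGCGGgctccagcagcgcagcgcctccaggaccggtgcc
Ahcy: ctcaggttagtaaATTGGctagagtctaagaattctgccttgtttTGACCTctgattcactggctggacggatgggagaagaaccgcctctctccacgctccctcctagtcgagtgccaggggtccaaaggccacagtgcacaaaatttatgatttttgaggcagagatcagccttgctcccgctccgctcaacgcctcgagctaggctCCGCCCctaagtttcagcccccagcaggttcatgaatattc
Cbs: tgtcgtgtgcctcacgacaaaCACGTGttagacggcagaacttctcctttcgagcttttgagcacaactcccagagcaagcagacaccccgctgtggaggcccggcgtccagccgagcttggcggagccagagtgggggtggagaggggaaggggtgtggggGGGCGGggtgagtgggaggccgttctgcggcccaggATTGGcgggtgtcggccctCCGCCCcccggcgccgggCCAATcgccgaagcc

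Bhmt held the half-site 3 times, and the copy nearest to its start was part of the longer run CAAAGGTCA, which 0.426% of 32851 promoters of this length held. Bhmt2, close to it on chromosome 13, held no half-site but the GC box 2 times. Ahcy held the half-site, the GC box and the CCAAT box 1 time each. Cbs held the E-box 1 time, the GC box 2 times and the CCAAT box 2 times. Of all promoters 14.0% held the half-site, 6.02% the E-box, 32.7% the GC box and 33.8% the CCAAT box. An entry was found for 7 of the 9 genes, Mat1a and Cth having none. The D-box letters TTATGTAA, which 0.819% of promoters held, were in 0 of the 7. A match of letters is a description of the window. An assembled transcript that held 67.4% of the Bhmt FPKM has its 5′ end at position 93639836, upstream of the Bhmt window.

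None of the 9 genes passed in CLE against HFD, where limma called 6.03% of all genes tested, and 1 of 9 had an unadjusted p under 0.05, beside 29.5% of all genes. Leaving out 1 liver moved the calls over all genes from 698 to between 28, without HFD mouse 15, and 2190, without CLE mouse 2, with 61 without HFD mouse 12, 93 without HFD mouse 18, 55 without CLE mouse 4 and 419 without CLE mouse 11. In each of these 6 fits 0 of the 9 were called. The gene with an unadjusted p under 0.05 was Mat2a, at 62.4, 56.8 and 55.9 FPKM in CLE, below every HFD liver and overlapping the ND livers. Its log2 fold change was -0.39 (95% interval -0.68 to -0.11, limma adjusted p = 0.078). Cbs was 201, 228 and 229 FPKM in CLE, above every HFD liver, at 0.20 on the log2 scale (95% interval -0.03 to 0.42, limma adjusted p = 0.23). Gnmt was 741, 749 and 659 FPKM in CLE, below every HFD liver, at -0.22 (95% interval -0.56 to 0.12, limma adjusted p = 0.37). Such a gap was found for 15% of all genes with CLE below and 16.3% with CLE above. The remaining 6 genes overlapped between CLE and HFD. Ahcy was 759, 791 and 742 FPKM in CLE, with a 95% interval of -0.29 to 0.31 for its log2 difference from HFD.

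LU gave the same count against HFD. None of the 9 genes passed, where limma called 1.03% of all genes tested, and none had an unadjusted p under 0.05, beside 20.3% of all genes. Leaving out 1 liver moved the calls over all genes from 119 to between 11, without LU mouse 3, and 213, without LU mouse 8, with 56, 30 and 28 without HFD mice 12, 15 and 18 and 39 without LU mouse 2. In each of these 6 fits 0 of the 9 were called. Bhmt was 3432, 3328 and 3103 FPKM in LU, above every HFD liver, at 0.28 on the log2 scale (95% interval -0.17 to 0.74, limma adjusted p = 0.46), a gap that 13.1% of all genes showed. Mat2a was 56.9, 58.0 and 79.1 FPKM in LU. The liver of LU mouse 8 lay within the HFD range and the other LU livers within the ND range (log2 fold change -0.26, limma adjusted p = 0.27). Ahcy was 845, 748 and 756 FPKM in LU, with a 95% interval of -0.26 to 0.34 for its log2 difference from HFD. For Bhmt the upper bound lies beyond the size of its difference between HFD and ND, so a missed threshold does not show equal levels.

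CLE and LU were also set beside ND, with the ND livers shared by these comparisons and by HFD against ND. In CLE 4 of the 9 genes fell below ND, where limma called 27.0% of all genes tested and 6.08% as lower. Of all calls 77.5% were higher in CLE, and 43.0% after median-of-ratios scaling, which called 14.0% of all genes as lower and 7 of the 9. Gnmt fell by 0.60 on the log2 scale (limma adjusted p = 0.018), Bhmt2 by 0.64 (limma adjusted p = 0.0060) and Ahcy by 0.54 (limma adjusted p = 0.016), each lower in every CLE liver than in every ND liver, as was Cbs and as were 10.1% of all genes. Mat1a fell by 0.52 (limma adjusted p = 0.039), although CLE mouse 2, at 2394 FPKM, was above ND mouse 3, at 2312 FPKM. Leaving out ND mouse 4 kept only Bhmt2 of these calls (1 of 9), leaving out ND mouse 2 kept 2 of 9, and leaving out ND mouse 3 gave 6 of 9. The fit of the CLE and ND livers alone called 2 of 9, Gnmt and Bhmt2.

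In LU 3 of the 9 genes fell below ND, where limma called 14.9% of all genes tested and 3.78% as lower. Of all calls 74.7% were higher in LU, and 40.7% after median-of-ratios scaling, which called 8.92% of all genes as lower and also 3 of the 9. Bhmt2 was 93.2, 91.8 and 103 FPKM in LU and fell by 0.57 on the log2 scale (limma adjusted p = 0.015). Ahcy fell by 0.50 (limma adjusted p = 0.031) and Cbs, at 205, 192 and 218 FPKM in LU, by 0.35 (limma adjusted p = 0.041). These 3 were the genes with every LU liver below every ND liver, against 11.5% of all genes. Without ND mouse 4 there were 0 of 9 calls, without ND mouse 2 or any 1 of the LU mice there was 1, which was Bhmt2 in each, and without ND mouse 3 there were 5. The fit of the LU and ND livers alone called 2 of 9, Bhmt2 and Cbs.

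Some markers of zone and cell type passed here as well. Of all 11566 genes tested, 2416 were called as higher in CLE than in ND and 703 as lower, and in LU 1290 and 437. Of the 8 pericentral genes 5 were higher in CLE than in ND and 6 in LU, with sums of 9501 to 10513 FPKM in CLE and 9329 to 11909 FPKM in LU, all above the ND range. Of the 6 stellate cell genes 4 were higher in each, with sums of 127 to 201 FPKM in CLE and 128 to 170 FPKM in LU. Kupffer cell genes passed as higher in 2 of 6 in CLE and 0 in LU, endothelial genes in 2 of 5 in each, and cholangiocyte, dividing cell and adipocyte genes in 1 each in CLE and 0 in LU. Of the 8 general hepatocyte genes 1 was lower in CLE and 1 in LU, and no periportal or lymphocyte gene passed. Their part in the values of the 9 genes was not tested.

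Between CLE and LU 0 of the 9 passed, where 0.00865% of all genes did. Gnmt, lower in CLE by 0.37 on the log2 scale, was the 1 of 9 with an unadjusted p under 0.05, beside 4.39% of all genes (limma adjusted p = 0.97). LU mouse 8, at 720 FPKM, lay within the CLE range and LU mice 2 and 3, at 1143 and 952 FPKM, above it.

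A test of any difference among the 4 groups (moderated F) passed for Bhmt2 (limma adjusted p = 0.014), Ahcy (limma adjusted p = 0.028) and Cbs (limma adjusted p = 0.033), beside 24.4% of all genes tested. The balance of the 2 methionine adenosyltransferases was also set out within each liver. Mat1a was 36.7 to 61.1 times Mat2a in ND, 24.7 to 28.9 times in HFD, 33.6 to 38.4 times in CLE and 30.6 to 38.0 times in LU. The HFD livers had the lowest ratios, below each of the other 9 livers, although HFD mouse 18, at 28.9, lay close to LU mouse 8, at 30.6. Neither gene passed in HFD against ND, or in CLE or LU against HFD. The ratio itself was not tested, and no share over all genes was set beside it.

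Some sums rest on uncertain rows. Ahcy shares 66.0% of its 50-base runs with Gm4737, a near copy at a mean of 85.5 FPKM, and Bhmt shares 24.1% with Gm5096, at 93.8 FPKM, so reads of these pairs could be split either way. Adding Gm4737 to Ahcy gave a log2 fold change of -0.51 in HFD against ND (limma adjusted p = 0.029). Bhmt and Bhmt2 share 10 such runs, and Mat1a and Mat2a share 0. In Shmt1 4.39% of the sum came from a row antisense to the gene. Its main coding transcript held 38.7% of the sum. Rows annotated as retained introns held 12.9%, 5.20%, 4.11% and 1.38%, and an annotated transcript not marked as coding held 5.91%.

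Some transcripts within Bhmt, Mat1a and Cbs took a different share in CLE and LU livers than in ND and HFD livers. The annotated Bhmt transcripts held 12.7% of its FPKM, and a pair of transcripts assembled by the authors held the rest. One of the pair, with the shorter span, took at most 13.2% of Bhmt in ND and 11.9% in HFD, but 17.2% to 58.3% in CLE and 30.7% to 45.9% in LU. In Mat1a 1 assembled transcript took 38.6% to 54.6% in ND, 40.2% to 52.4% in HFD, 10.6% to 29.7% in CLE and 19.2% to 24.8% in LU. In Cbs 1 assembled transcript took at most 0.00083% in ND and 6.55% in HFD, but at least 11.3% in each CLE liver and 14.5% in each LU liver. The ND and HFD ranges lay apart from the CLE and LU ranges for these transcripts of the 3 genes. The share of all transcripts with such a gap was not counted, and other transcripts of the members overlapped. The annotated Cbs transcript with the largest share took 27.9% to 34.3% in ND, 33.0% to 35.9% in HFD, 32.6% to 36.3% in CLE and 33.1% to 36.7% in LU. The GC content relation also lay apart across libraries, and its part in this split was not tested. Over annotated transcripts alone Bhmt was at -0.06 in HFD against ND and at -1.42 in LU against HFD, so the direction of Bhmt in LU turned with the rows that were summed. In Ahcy a shorter annotated transcript took 18.6% to 28.0% in ND and 5.45% to 17.2% in HFD. It took 0.108% to 7.61% in CLE and 0.917% to 5.90% in LU. The main Ahcy transcript was 853, 681 and 891 FPKM in ND and 624, 612 and 689 FPKM in HFD, so these groups overlapped. The fall of the Ahcy sum in HFD thus lay partly in the shorter transcript.

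**Figure D4:**
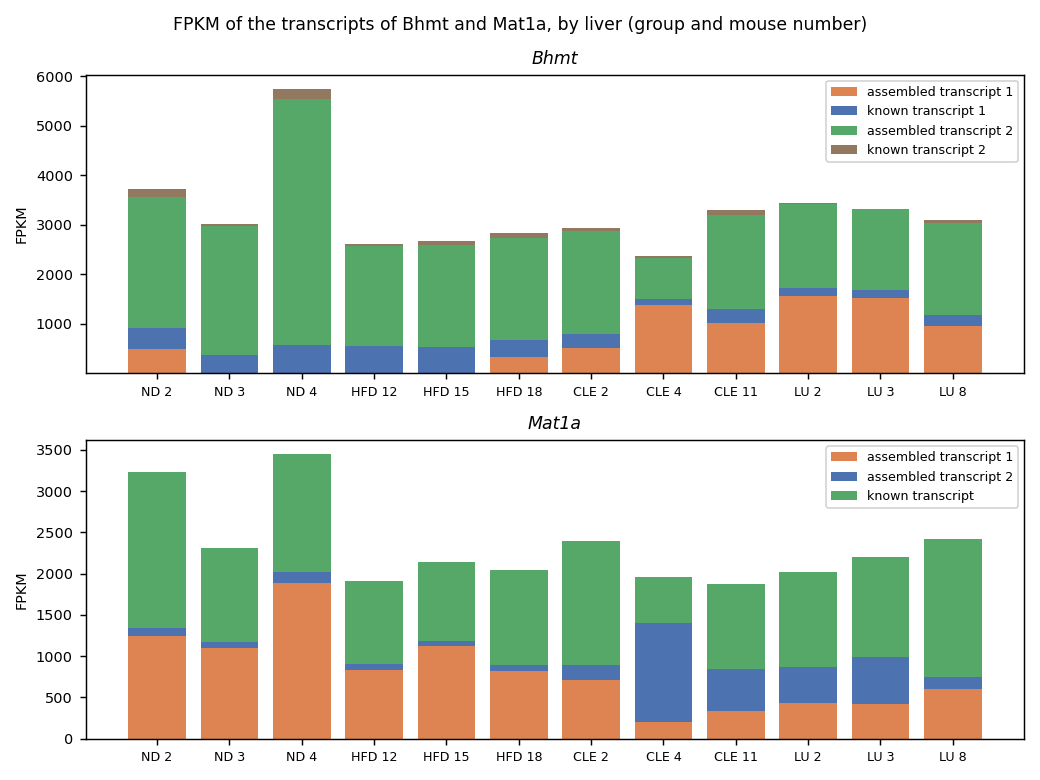
FPKM of each transcript of Bhmt (top) and Mat1a (bottom), stacked to the gene sum, in each liver by group and mouse number. Assembled transcript 1 of Bhmt (orange) was near 0 in 4 of the 6 ND and HFD livers and reached 1566 FPKM in LU mouse 2.

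Around the cycle, 66 further genes in 6 lists were followed, of which 63 were tested. In HFD 10 rose and 3 fell against ND (20.6% of those tested, beside 12.1% of all genes). In the list of S-adenosylmethionine regulators and methyltransferases 3 of 11 rose: Hnmt, which methylates histamine, by 1.21 on the log2 scale, Inmt, which methylates indoleamines, by 0.96, and Tpmt, which methylates thiopurines, by 0.75. In the betaine and remethylation list 1 of 8 passed, Aldh7a1, which makes betaine from its aldehyde, at 0.56. In the folate list 2 of 14 rose, among them Mthfd1l, a mitochondrial formate enzyme, by 0.58. Its mean was 0.28 FPKM in ND and 0.92 FPKM in HFD, near the floor, and the ND mean lay below the 0.5 FPKM filter. Mthfd1l thus entered the test through the groups where it was higher, and its fold change depends on the 1 FPKM added.

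Genes downstream of cysteine changed in 4 of 11, beside 12.1% of all genes tested. The share called in the serine and glycine list below, 11.1%, was near that of all genes. Gclc, the first enzyme of glutathione synthesis, was 92.8 ± 7.36 FPKM in ND and 172 ± 13.8 FPKM in HFD (SD, n = 3 each) and rose by 0.88 (limma adjusted p = 0.0015). Gss, the second enzyme, rose by 0.55 and the sulfide oxidase Sqor (Sqrdl in the table) by 0.54, while Got1, an aspartate aminotransferase, changed by -1.27. Of 9 serine and glycine genes Agxt, the alanine-glyoxylate aminotransferase, fell by 0.63. Of 10 salvage and polyamine genes Mtap, which recycles methylthioadenosine, rose by 0.39 and Odc1, which makes putrescine, fell by 0.75. With the clock score as covariate 6 of the 63 passed, beside 3.60% of all genes tested.

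**Figure D5:**
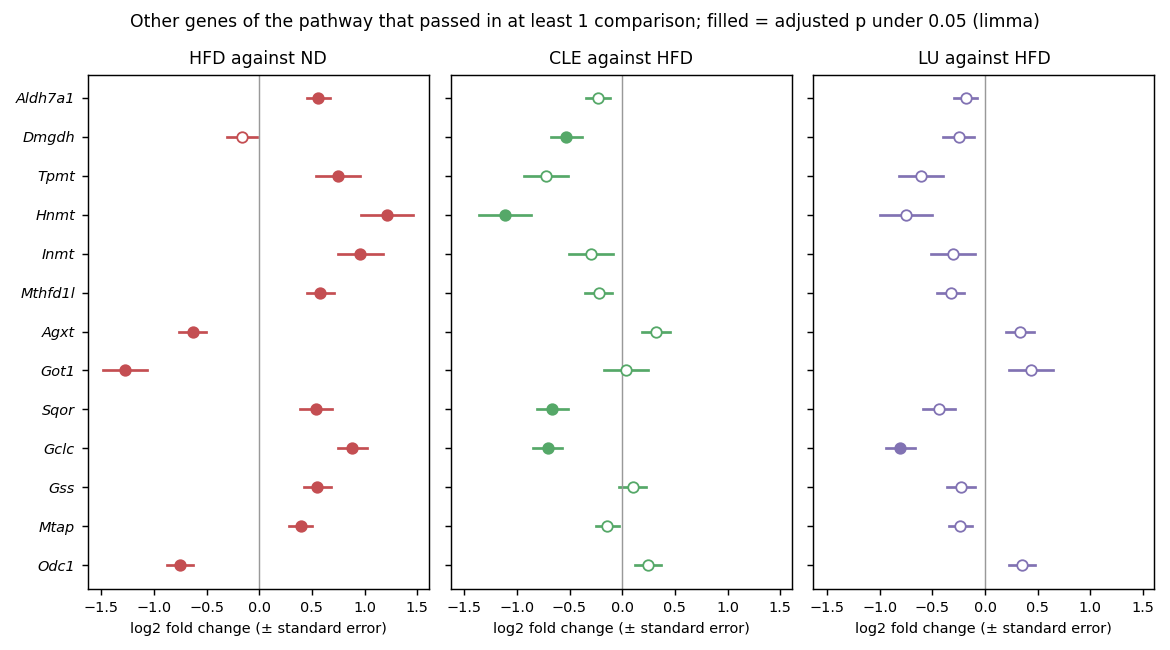
Log2 fold change (on the log2(FPKM + 1) scale) with its standard error for 13 listed genes that passed in at least 1 of the 3 comparisons; filled points passed an adjusted p of 0.05. Gclc is filled in all 3 panels, higher in HFD against ND and lower in CLE and in LU against HFD.

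In CLE 5 of the 63 were lower than in HFD and none higher (7.94%, beside 6.03% of all genes). Among them were Hnmt at -1.11, Gclc at -0.71, Sqor at -0.66 and Dmgdh, which demethylates dimethylglycine, at -0.53. Dmgdh passed narrowly (limma adjusted p = 0.049). In LU 1 of the 63 passed against HFD, Gclc, at 99.3 ± 20.2 FPKM (SD, n = 3) and -0.80 on the log2 scale (limma adjusted p = 0.017). Between CLE and LU 0 of the 63 passed. Calls against HFD depended on single livers, as given above. With 1 liver left out they lay between 28 and 2190 over all genes in CLE and between 11 and 213 in LU. With the clock score as covariate 0 passed in CLE or in LU against HFD, beside 0.56% and 0.19% of all genes.

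The genes whose pattern over the 12 livers was most like that of a member, by Pearson r of log2 values, are given as a description. Igfbp1, a secreted binder of insulin-like growth factors, was the nearest to Mat1a (r = 0.96) and the second nearest to Ahcy (r = 0.92). Desi2 was the nearest to Bhmt2 (r = 0.96), Fam222a to Ahcy (r = 0.93) and Wrnip1 to Cbs (r = 0.91). Fam222a averaged only 0.76 FPKM, near the floor. The nearest to Shmt1 was 2310035C23Rik (r = 0.95), to Mat2a Spink3 (r = 0.92, mean 1.30 FPKM) and to Bhmt 3110043O21Rik (r = 0.87). Hgd was the nearest to Cth (r = 0.86) and AI317395 to Gnmt (r = 0.85). Among the members themselves Mat1a and Ahcy were the closest (r = 0.89), followed by Mat1a and Bhmt2 (r = 0.88). The livers in these correlations differ in diet group and in clock gene score.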

How the data were processed

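Liver RNA of 12 mice was sequenced from mRNA libraries (TruSeq). Per the labels, the authors used CASAVA 1.8.2, Bowtie2 2.2.3, TopHat2 2.0.12 and Cufflinks 2.2.1 and deposited FPKM values per known or assembled transcript, without counts. The genome build is not given in the sources used here, and 85.5% of 78786 known transcripts have the start and end of GENCODE M21 (GRCm38). The study's methods name DEGES/edgeR factors, and whether the FPKM include them is not stated. The assembly covers 30 samples, of which 12 have values.

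FPKM were summed by gene name and tested as log2(FPKM + 1) with limma 3.58.1 in R 4.3.3 (variance trend, all 12 livers in one fit, two-sided, Benjamini-Hochberg over 11566 names with a mean of at least 0.5 FPKM, threshold 0.05). Fold changes on this scale understate those of low genes. The 3 livers of a group are separate mice, and an exact permutation test of 3 against 3 cannot go below p = 0.1. The script was tested on simulated data. The 9 genes, the lists and the markers were chosen with earlier results of these data known. All 9 are described, other pathway genes are named where they passed in HFD against ND or where CLE or LU differed from HFD, and the 2 most correlated genes of each member were ranked. The values of 1 listed gene are not reported here, though the list counts include it. Promoters are from RefSeq. Mouse numbers shared by groups did not pair the livers. Alternatives covered the pseudocount (0.1), filters (none, 5 FPKM), scaling, the fit, transcript choice, the clock score, left-out livers and the replicate block. The M21 gene sums, both GC corrections and the near-copy sums were added after seeing the data.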

Additional observations from a re-analysis of the deposited data

How the results depend on the processing

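Over all alternatives 1161 values of the 9 genes were recomputed. Of these 63 changed sign, none where either value was called, 61 lost a call and 27 gained one. The counts of genes called moved with several settings, and unless stated the cause was not tested.

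With the clock gene score as covariate 0 of the 9 genes were called in HFD, CLE and LU against ND, and 6 of the 63 listed genes in HFD against ND and 0 in CLE or LU against HFD or ND. Changes of sign were Shmt1 at -0.054 and Cth at 0.066 in HFD against ND, Cth at 0.0049 in CLE against HFD, Bhmt2 at 0.092 and Cth at 0.12 in LU against HFD, Bhmt at 0.021, Cth at 0.071 and Mat2a at 0.15 in CLE against ND, and Bhmt at 0.29, Cth at 0.18 and Mat1a at 0.10 in LU against ND.

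With the highest transcript 0 of the 9 were called in HFD against ND and 1 in LU against ND, and 6 listed genes in HFD against ND, 3 in CLE and 0 in LU against HFD. Bhmt was at -0.46 and Mat1a at -0.11 in CLE against HFD, Bhmt at -0.24 in LU against HFD, and Odc1, called as lower in the sums, at 0.34 in CLE and 0.55 in LU against ND. With complete matches only, 8 listed genes were called in HFD against ND, Bhmt was at -0.95, Cbs at -0.29 and Mat1a at -0.11 in CLE against HFD, Bhmt at -1.42 and Cbs at -0.28 in LU against HFD, Bhmt at 0.47 and Cbs at -0.015 in CLE against LU, and Shmt1 at 0.063 in CLE against ND.

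Scaling by median of ratios and quantile normalization each called 7 of the 9 in CLE against ND, and moved the share of higher calls in HFD against ND from 82.6% to 55.2% and 55.7% over all genes. The former moved it from 77.5% to 43.0% in CLE against ND and from 74.7% to 40.7% in LU against ND. Under the former Ahcy was at -0.0044 in CLE against HFD, Shmt1 at -0.15 in HFD against ND and Mat2a at -0.026 in LU against ND. Under the latter Bhmt was at -0.011 and Mat1a at -0.073 in CLE against HFD and Shmt1 at -0.077 in HFD against ND. With GC content correction Ahcy was at -0.027 and Shmt1 at 0.0070 in CLE against HFD and Shmt1 at -0.12 in HFD against ND. With length and GC content correction Ahcy was at -0.014 and Shmt1 at 0.028 in CLE against HFD, Mat2a at 0.00035 in CLE against ND, Shmt1 at -0.11 in HFD against ND and Gnmt at -0.077 in LU against HFD. With the near copies added, Ahcy was at -0.035 in CLE and -0.030 in LU against HFD.

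A fit of the 2 groups alone, which has fewer livers, called 4 of the 9 in HFD against ND, with Mat2a as higher (0.37), and 2 each in CLE and LU against ND, and 1, 8 and 2 listed genes in CLE against HFD, CLE against ND and LU against HFD. With no filter 1 listed gene was called in CLE against HFD and 3 in LU against ND, and with M21 gene sums 3 in CLE against HFD.

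Mouse numbers are shared by some ND, CLE and LU livers, and the deviations of same-numbered livers correlated at -0.26, 0.09, 0.18, -0.10 and -0.17, so the livers share only a number. With the replicate block 0 of the 9 and 0 listed genes were called in CLE and LU against ND, with Mat2a at 0.13 in CLE against LU, 0.036 in CLE against ND and -0.092 in LU against ND, and Gnmt at 0.0054 in LU against ND. HFD shares no number with the other groups.

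Leaving out each liver in turn gave 0 to 5 calls of the 9 in HFD against ND, 1 to 6 in CLE against ND and 0 to 5 in LU against ND. In CLE against HFD log2 fold changes ran from -0.016 to 0.030 for Ahcy, -0.036 to 0.20 for Bhmt, -0.078 to 0.096 for Mat1a and -0.094 to 0.057 for Shmt1. In CLE against LU they ran from -0.065 to 0.022 for Ahcy, -0.21 to 0.065 for Cth and -0.21 to 0.021 for Mat2a. In CLE against ND they ran from -0.076 to 0.013 for Mat2a and -0.064 to 0.0074 for Shmt1, in HFD against ND from -0.083 to 0.068 for Shmt1, in LU against HFD from -0.013 to 0.074 for Ahcy and -0.0078 to 0.32 for Gnmt, and in LU against ND from -0.048 to 0.19 for Mat2a. FPKM hold no counts, so no limit from depth can be given.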
